A study of Rattus norvegicus with 17 samples.

Results

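At 3 days after a contusion of the thoracic spinal cord, 787 genes had more RNA in the cord of injured, unstimulated rats than in the cord of sham-injured, unstimulated rats, and 33 had less. The comparison, named ±SCI(0), used 7 of the 17 rats of the study, namely the 3 rats of group B (injury alone) and the 4 rats of group A (sham injury), picked by their labels. It asks what the injury by itself does to transcription in the cord. The other groups of the study share the fit and are otherwise used below only as further rats. They are group C (3 injured rats, stimulated), group D (2 injured rats, stimulated and given pimozide) and group E (5 intact rats, stimulated).

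All were female Sprague-Dawley rats, 10 to 12 weeks old according to the methods of the study, whose keywords name the Brown Norway strain instead. Injury was a moderate bilateral contusion through a laminectomy, and some of the controls had a laminectomy only. Groups A and B shared the brainstem electrode, placed under isoflurane in the nucleus raphe magnus but left without current for the 2 h in which other rats were stimulated. Buprenorphine and gentamycin were given after surgery. The library of a rat held tissue from cervical, thoracic and lumbar cord together with its pia-arachnoid, so that a count mixes the lesion with cord above and below it. Group A held 9852873 to 13060462 counts on genes and group B 10334208 to 10518498. The sample labels call group E unstimulated, against its titles and the methods, which were followed.

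A contusion tears vessels and kills cells at the impact. In the days that follow, resident microglia and astrocytes react, and neutrophils and then monocytes enter from the blood. Interferons, cytokines released on infection or tissue damage, switch on a set of genes that includes the Mx GTPases and the oligoadenylate synthetases, and complement proteins tag debris for removal. In these bulk samples a change in RNA per cell and a change in the number of cells of a type cannot be told apart.

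Genes in the deposited counts carry Ensembl identifiers and no names. Names were found for 99 of its 32494 identifiers, and 98 of these were among the 15460 genes tested. Apart from Slc17a7, markers of the cord's own neurons and glia, and those of microglia and macrophages, were not among them, so the labelled tissue was not checked against its markers. The names come from lists that the study drew up for other comparisons. Of the 98, 43 were picked for a response to stimulation in injured rats, a comparison that uses the rats of group B, so their direction in ±SCI(0) is not independent evidence. The other 55 were picked only in the pimozide comparison, which shares no rat with groups A or B.

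The promoters of the 3 named genes called higher in group B are printed here because all 3 have an upstream sequence in RefSeq, in which the letters of an interferon-response motif were searched. Each is 250 bases ending just before the annotated start, read along the gene in rat build GRCr8. Capitals mark GAAAC or GTTTC, the same 5 bases on either strand, which form part of the interferon-stimulated response element.
Mx1, chr11:50294607-50294856, minus strand: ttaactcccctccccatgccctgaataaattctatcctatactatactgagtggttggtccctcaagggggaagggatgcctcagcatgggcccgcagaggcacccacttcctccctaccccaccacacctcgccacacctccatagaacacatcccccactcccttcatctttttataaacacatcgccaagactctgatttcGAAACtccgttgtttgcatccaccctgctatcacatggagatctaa
Uba7, chr8:117543652-117543901, plus strand: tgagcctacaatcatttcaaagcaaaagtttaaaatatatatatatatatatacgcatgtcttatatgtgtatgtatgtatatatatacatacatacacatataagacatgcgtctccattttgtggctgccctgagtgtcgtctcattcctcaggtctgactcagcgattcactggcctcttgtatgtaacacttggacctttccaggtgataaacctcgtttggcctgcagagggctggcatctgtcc
Ltc4s, chr10:35063595-35063844, minus strand: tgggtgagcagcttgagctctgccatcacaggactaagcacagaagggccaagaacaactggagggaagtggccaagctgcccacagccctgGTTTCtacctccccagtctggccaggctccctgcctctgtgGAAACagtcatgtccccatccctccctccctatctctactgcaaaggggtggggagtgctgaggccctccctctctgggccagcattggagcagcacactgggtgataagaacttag

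The marked letters occur 1 time in Mx1, from 46 to 42 bases before the start, and 2 times in Ltc4s. They do not occur in this window of Uba7. Over all 33469 promoters of the table, 41.1% hold them. The longer motif, GAAA, any 2 bases and GAAA again, searched on both strands, was in 3.41% of all promoters. It was in 0 of the 5 promoters looked up, those of Mx1, Uba7, Oasl, Gbp6 and Ltc4s. Mx2, Oas2 and Ifit2 were not matched in the table.

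Across the 15460 genes tested, 820, or 5.3%, were called in ±SCI(0). A gene was called when edgeR's quasi-likelihood test gave a false discovery rate (FDR) under 0.05 after Benjamini-Hochberg adjustment and the log2 fold change, log2(FC), lay beyond 1 in either direction. Genes called higher made up 5.09% of those tested and genes called lower 0.213%. Of the genes called, 96% were higher after injury. The median log2(FC) of all genes tested was -0.02, and 47.2% of them had a value above 0.

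Rises were larger than falls, by median log2(FC) at the same thresholds. Levels are in CPM, which are counts scaled to library size. The 787 genes called higher had a median log2(FC) of 1.77, with quartiles of 1.34 and 2.34, and their median level went from 3.07 CPM in group A to 11.3 CPM in group B. Of them, 301 rose more than 4-fold and 76 more than 8-fold. In 778 of the 787, every injured rat was above every sham-injured rat. Over all genes tested, 32.6% had groups that did not overlap, 17.4% with group B higher and 15.1% with group B lower.

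**Figure D1:**
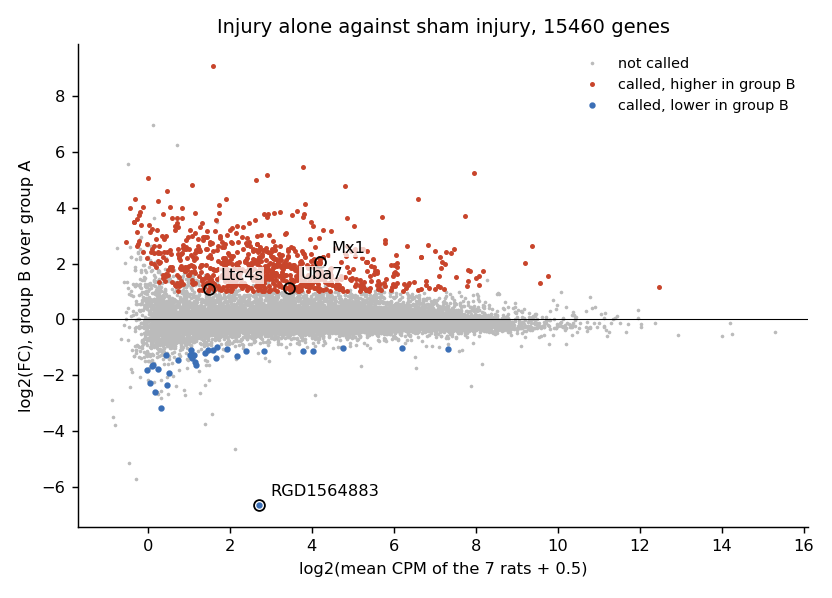
Each point is 1 of the 15460 genes tested, with the log2 of its mean CPM over the 7 rats plus 0.5 on the x axis and its log2(FC) of group B over group A on the y axis. Called genes are in red (787 higher) or blue (33 lower), grey points were not called, and circles mark the 4 named genes that were called. The red cloud reaches further from 0 than the blue one, apart from RGD1564883 at -6.65.

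Falls were more numerous when no limit on fold change was set. The FDR alone passed 1912 genes, 12.4% of those tested, of which 1491 (9.64% of those tested) were higher and 421 (2.72%) lower. These 421 had a median log2(FC) of -0.47, 388 of them changed by less than 2-fold, and their median level was 64.8 CPM in group A and 47.4 CPM in group B. The 1491 genes higher by the FDR alone had a median log2(FC) of 1.06, and 704 of them changed by less than 2-fold. The 33 genes called lower had a median log2(FC) of -1.28 and sat at a median of 2.40 CPM in group A. Their number fell to 14 without rat 95 and 15 without rat 91 of group B, and was 62 in the exact test on groups A and B alone.

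Calls with the limit on fold change were rarer at high expression in both directions. By mean CPM over the 17 rats, 9.26% of genes at 1 to 4 CPM were called higher and 0.679% lower, against 1.76% and 0.057% of those at 64 CPM or more. By the FDR alone, the share lower went from 1.06% of genes under 1 CPM to 5.57% of genes at 64 CPM or more, and the share higher was 5.19% and 8.16% in these bins, with a peak of 13.7% at 4 to 16 CPM. Power depends on the level, and its part in these shares was not tested.

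At the level of single genes, 4 well-expressed ones known here by identifier only show these changes, and were chosen after their values were seen. ENSRNOG00000002919 stood at 4212, 3713, 3160 and 3797 CPM in the sham-injured rats and at 8060, 8292 and 8711 CPM in the injured rats. Its log2(FC) was 1.17 (SE 0.11, adjusted p = 5.2e-06, edgeR quasi-likelihood). ENSRNOG00000008816 went from between 14.1 and 16 CPM in group A to 708, 349 and 625 CPM in group B, a log2(FC) of 5.23 (SE 0.49, adjusted p = 5.6e-06 in the edgeR test). Both groups were tight and far apart for the first gene, while the injured rats spread about the second.

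Among falls, ENSRNOG00000013552 lay at 187, 176, 198 and 262 CPM in group A and at 85, 121 and 88.3 CPM in group B, a log2(FC) of -1.07 (SE 0.18, adjusted p = 0.00070, edgeR). ENSRNOG00000025121 lay at 83.8, 89.3, 89.8 and 111 CPM and at 37.3, 60.3 and 39.1 CPM (log2(FC) -1.04, SE 0.24, adjusted p = 0.0074, edgeR). Rat 94 of group B was the nearest to the intact rats in both.

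Of the 98 named genes, 4 were called in ±SCI(0), 3 higher and 1 lower, which is 4 of 98 beside 5.3% of all genes. Mx1 (ENSRNOG00000001959), a GTPase that blocks viruses inside the cell and is induced by interferon, was measured at 6.25, 5.80, 6.08 and 12.7 CPM in the sham-injured rats and at 19.2, 20.1 and 55.6 CPM in the injured rats. Every injured rat was above every sham-injured rat, but rat 95 had more than both other injured rats together. The log2(FC) was 2.04 (SE 0.51, adjusted p = 0.015, edgeR quasi-likelihood). Without rat 95 the log2(FC) fell to 1.35 and the call was lost (adjusted p = 0.13, edgeR).

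Uba7 (ENSRNOG00000029195) encodes the enzyme that activates the ubiquitin-like protein ISG15 and is itself induced by interferon. It stood at 7.81, 6.12, 5.89 and 7.99 CPM in group A and at 15.1, 14.3 and 15.9 CPM in group B, with no overlap and little spread within either group. Its log2(FC) of 1.12 (SE 0.21, adjusted p = 0.0018, edgeR) held its call in every alternative run, and ranged from 1.06 to 1.198 when each rat in turn was left out.

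Of the 22 genes of the interferon list, 4 were matched to an identifier: Mx1, Mx2, Oasl and Ifit2. Of the 4, Mx1 was called, beside 5.09% of all genes called higher, and all 4 fitted values were above 0, beside 47.2% of all genes, with a median log2(FC) of 0.87, which was 0.42 without rat 95. Mx2, a relative of Mx1, had 20.8 to 36.0 CPM in group A and 31.8 to 49.0 CPM in group B (log2(FC) 0.53, SE 0.33). Oasl, of the oligoadenylate synthetase family, had 0.417 to 1.65 CPM and 1.54 to 4.53 CPM (log2(FC) 1.22, SE 0.53), and Ifit2, which binds viral RNA, 15.0 to 22.0 CPM and 15.9 to 26.8 CPM (log2(FC) 0.28, SE 0.22). The groups overlapped in each of the 3.

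Rat 95 was the highest of the injured rats in all 4 genes. The summed level of the 4 was 42.9 to 72.3 CPM in group A and 73.1, 69.9 and 136 CPM in group B. Among the sham-injured rats, rat 84 was the highest in 3 of the 4, and its sum of 72.3 CPM was above that of rat 94 of group B. Oas2, which makes the second messenger that activates RNase L, is outside the list. It had 0.570 to 1.18 CPM in group A and 1.35 to 2.89 CPM in group B, with no overlap (log2(FC) 1.14, SE 0.43, adjusted p = 0.090, edgeR). It was called higher in 3 alternatives, the exact test and the quasi-likelihood fit on groups A and B alone and a rerun of the study's pipeline. Gbp6, a guanylate-binding protein, overlapped between groups, at 0.157 to 1.68 CPM and 0.459 to 2.89 CPM.

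**Figure D2:**
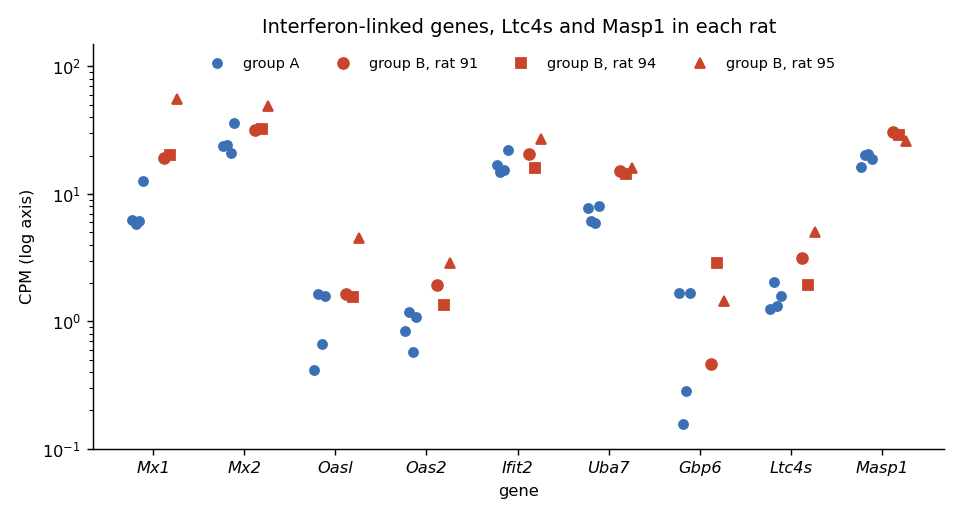
CPM on a log axis for 9 genes in each rat, with the 4 rats of group A in blue and the 3 of group B in red. Uba7 and Masp1 show 2 separate, tight clusters, whereas the rise of Mx1 is uneven, with rat 95 (triangle) at 55.6 CPM against 19.2 and 20.1 CPM.

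Ltc4s (ENSRNOG00000003244) encodes leukotriene C4 synthase, which makes the first of the cysteinyl leukotrienes, lipid mediators of inflammation. It was measured at 1.25, 2.04, 1.33 and 1.58 CPM in group A and at 3.12, 1.92 and 5.01 CPM in group B, so that rat 94 was below rat 82 of group A. The log2(FC) was 1.09 (SE 0.33, adjusted p = 0.038, edgeR). The call rested on counts of 12 to 52 per rat and was lost when rat 70, 83 or 84 of group A or rat 91 or 95 of group B was left out. The log2(FC) was 0.69 without rat 95 and 1.01 to 1.14 without the others.

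Masp1 (ENSRNOG00000001827), a serine protease of the lectin pathway of complement, passed the FDR with a change under 2-fold. Its values were 16.4, 20.3, 20.4 and 18.7 CPM in the sham-injured rats and 30.8, 29.0 and 25.8 CPM in the injured rats, without overlap (log2(FC) 0.59, SE 0.11, adjusted p = 0.0019, edgeR). It was the only matched member of the 16 genes of the complement list, as Ltc4s was of the 9 eicosanoid enzymes.

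The named gene called lower was RGD1564883 (ENSRNOG00000029115), which RefSeq now lists as a pseudogene of the ribosomal protein gene Rpl12. It had 15.4, 14.6, 0.760 and 11.5 CPM in group A and 1 count in each rat of group B. The 459 counts of group A against the 3 of group B gave a ratio of 113 (95% interval 38.3 to 548, exact, counting error only). In group A, 3 of the 4 rats were high and rat 83 was low, and the log2(FC) from the fit was -6.65 (SE 1.77, adjusted p = 0.021, edgeR).

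The pattern across the other rats did not follow injury. RGD1564883 ranged from 0 to 8.17 CPM in the 5 intact rats of group E, from 10.6 to 19.9 CPM in the injured rats of group C, and was at 0 in both injured rats of group D. Leaving out any rat of group B took the adjusted p to between 0.062 and 0.10 (edgeR), with a log2(FC) of -6.66 to -6.63. Reads of ribosomal protein pseudogenes cannot always be told from those of near-identical copies, so its level is uncertain.

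Erythroid genes had lower fitted values in group B, with 0 of 13 called by edgeR's quasi-likelihood test, beside 0.213% of all genes called lower. So small a background makes 0 of 13 no result about the list. All 13 fitted values were below 0, where 47.2% of all genes were above it, and the median log2(FC) was -1.22. All 13 were picked with the rats of group B, and 3 had an unadjusted p under 0.05. Hba-a1, an alpha-globin chain, had 74.6, 389, 353 and 236 CPM in group A and 101, 147 and 117 CPM in group B (log2(FC) -1.11, SE 0.46, adjusted p = 0.13, edgeR). The sham-injured rats lay on both sides of the injured rats, because rat 70 of group A was below all 3 of them.

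Rat 70 was the lowest of group A in 12 of the 13 erythroid genes, including Slc4a1, the anion exchanger of the red cell membrane, at 1.98 CPM against 11.1 to 25.4 CPM in the other 3. Summed over the list, rat 70 had 156 CPM, the other sham-injured rats 483 to 802 CPM and the injured rats 207 to 302 CPM. Without rat 70, Hba-a1 (log2(FC) -1.42), Hbb (-1.44) and Ahsp (-1.87), which encodes a chaperone of alpha-globin, were called lower. Hba-a1 and Hbb were also called by edgeR's exact test on groups A and B alone and by the rerun of the study's pipeline. Globin genes are near-identical copies whose reads cannot always be told apart. The part of blood left in the tissue was not tested.

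Of the 15 genes of the neutrophil list, 10 were matched, 9 had a fitted value below 0 and 0 of 10 were called by edgeR's quasi-likelihood test (1 at an unadjusted p under 0.05), again beside 5.3% of all genes, with a median log2(FC) of -1.09. S100a8 and S100a9, the chains of calprotectin, are abundant in the neutrophil cytosol. S100a8 was at 1.35, 2.04, 5.03 and 19.1 CPM in the sham-injured rats and at 6.15, 5.58 and 5.30 CPM in the injured rats. S100a9 was at 1.77, 5.80, 9.78 and 29.7 CPM and at 10.6, 6.73 and 7.32 CPM.

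The sham-injured rats spread far more widely than the injured ones. Rat 84 was the highest of group A in 10 of 10 neutrophil genes and rat 70 the lowest in 10 of 10. The summed level of the list was 6.56, 16.4, 33.8 and 91.1 CPM in group A and 27.4, 19.4 and 24.5 CPM in group B. Without rat 84 the median log2(FC) of the 10 genes was 0.00, and S100a8 and S100a9 turned to 1.01 and 0.49. Fcnb, a ficolin stored in granules, was the 1 member with a fitted value above 0, at 0.208 to 2.66 CPM and 2.12 to 3.47 CPM (log2(FC) 1.05, SE 0.51).

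Other granule genes had lower fitted values in group B without a call by edgeR's quasi-likelihood test. Mpo, myeloperoxidase, had 0.938 to 5.43 CPM in group A and 1.06 to 1.47 CPM in group B. Ctsg, the serine protease cathepsin G, had 0 to 2.96 CPM and 0.092 to 0.289 CPM, and Epx, the peroxidase of eosinophils and in no list, 0 to 6.12 CPM and 0.192 to 0.459 CPM. In all 3 the highest rat was rat 84 of group A. Epx (log2(FC) -2.72) was called lower by DESeq2 (adjusted p = 0.025), by edgeR's exact test on all rats (adjusted p = 0.037), without rat 70 and with the number series in the model. Ctsg (log2(FC) -2.82) was called lower in the last 2 of these settings. Without rat 84 neither was called, at -1.39 for Epx and -1.88 for Ctsg (edgeR adjusted p = 0.33 and 0.32).

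Of 9 platelet genes, 5 were matched and 0 were called in the same edgeR test (0 at an unadjusted p under 0.05), beside the same 5.3%, with a median log2(FC) of -0.77. With each rat left out that median ranged from -1.18 to 0.04, the last without rat 83 of group A. Itga2b, the integrin chain of the platelet fibrinogen receptor, had 3.85, 5.88, 9.78 and 5.43 CPM in group A and 3.94, 4.33 and 4.82 CPM in group B. Rat 83 was the highest of group A in 5 of 5. Rat 70, the lowest of group A in most erythroid genes and in all 10 neutrophil genes, was the lowest in 3 of the 5 platelet genes.

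Of single list members, Mmp13, a collagenase, had 0.833, 3.29, 5.13 and 1.68 CPM in group A and 1.28, 0.096 and 0.867 CPM in group B (log2(FC) -1.86, SE 0.80, adjusted p = 0.14, edgeR), and the exact test on groups A and B alone and the fit with the number series called it lower. Slc17a7, the vesicular glutamate transporter VGLUT1, had 5.83, 4.16, 1.71 and 4.24 CPM and 3.58, 3.17 and 2.12 CPM (log2(FC) -0.42, SE 0.44). The groups overlapped in both.

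Small RNAs made up 32 of the named genes, 16 of them snoRNAs, 9 snRNAs and 7 of the class misc RNA. None was called by edgeR's quasi-likelihood test, 0 of 32, beside 5.3% of all genes, with 5 at an unadjusted p under 0.05. A fitted value below 0 was found in 31, where 47.2% of all genes were above 0. Rat 82 of group A was the highest of its group in all 32. AABR07060522.2, of the class misc RNA, stood at 88.9, 1199, 78.2 and 84.7 CPM in the sham-injured rats and at 49.8, 91 and 68.7 CPM in the injured rats. DESeq2 and both exact tests called it lower. Without rat 82 its log2(FC) went from -2.38 to -0.27, and the medians of the classes were 0.10 for snoRNAs, 0.14 for snRNAs and -0.13 for misc RNA.

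The level in rat 82 lay within the range of group E. AABR07060522.2 was at 564 to 1801 CPM in the 5 rats of group E and at 737 and 926 CPM in group D, but at 54.0 to 88.5 CPM in group C. What sets rat 82 apart within group A was not tested.

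**Figure D3:**
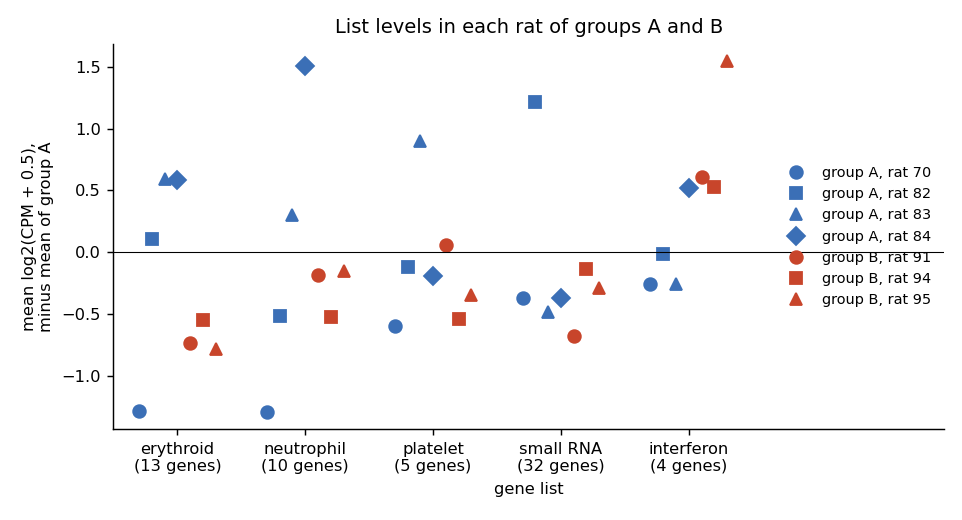
For 5 gene lists, the y axis gives each rat's mean log2(CPM + 0.5) minus the mean of group A, with group A in blue and group B in red. The sham-injured rats span the injured rats for the erythroid and neutrophil lists, rat 82 stands alone for small RNAs, and rat 95 of group B stands apart for interferon genes.

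Of the named genes in no list that the study's supplement classes as protein-coding, 2 of 28 were called, Uba7 and RGD1564883, beside 5.3% of all genes. Hnrnpa2b1, an RNA-binding protein of the nucleus, had 90.04 to 154 CPM in group A and 160 to 177 CPM in group B, a log2(FC) of 0.37 (SE 0.15, adjusted p = 0.11, edgeR), without overlap. Dnah17, an axonemal dynein chain, had 1.78 to 7.50 CPM and 1.16 to 3.03 CPM. Apart from Mx1, Uba7, RGD1564883, Hba-a1, S100a8, S100a9, Itga2b, Masp1, Mmp13 and Slc17a7, the genes named here were chosen after their values were seen.

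The genes called higher were followed in each rat as a share of all counts. In the sham-injured rats the 787 genes held 1.26%, 1.21%, 1.16% and 1.27% of the library, and in the injured rats 4.11%, 3.08% and 3.83%, means of 1.22% ± 0.05 (SD, n = 4) and 3.67% ± 0.53 (SD, n = 3). These rats chose the genes, so this is a description. The rats of the other groups entered the choice only through the shared filter, scaling and estimate of the spread. In them the share was 1.12% to 1.35% in the 5 intact rats of group E, 2.95% to 5.70% in the 3 injured rats of group C, and 3.27% and 5.44% in the 2 of group D.

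The injured rats differed in degree. Rat 91 was the highest of the 3 in 588 of the 787 genes (74.7%) and rat 94 the lowest in 659 (83.7%). The median shift of the 787 genes from the mean of group A, on the scale of log2(CPM + 0.5), was 1.74 in rat 91, 1.25 in rat 94 and 1.53 in rat 95. Rat 95, the highest in the interferon genes, was the highest of the 3 in 167 of the 787.

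The 421 genes lower by the FDR alone showed the same order in reverse. Rat 94 was the highest of the 3 in 266 of them and rat 91 the lowest in 237. Together these genes held 15.8% ± 0.29 of the library in group A (SD, n = 4) and 11.3% ± 0.80 in group B (SD, n = 3), and 14.6% in group E, 11.4% in group C and 11.2% in group D.

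**Figure D4:**
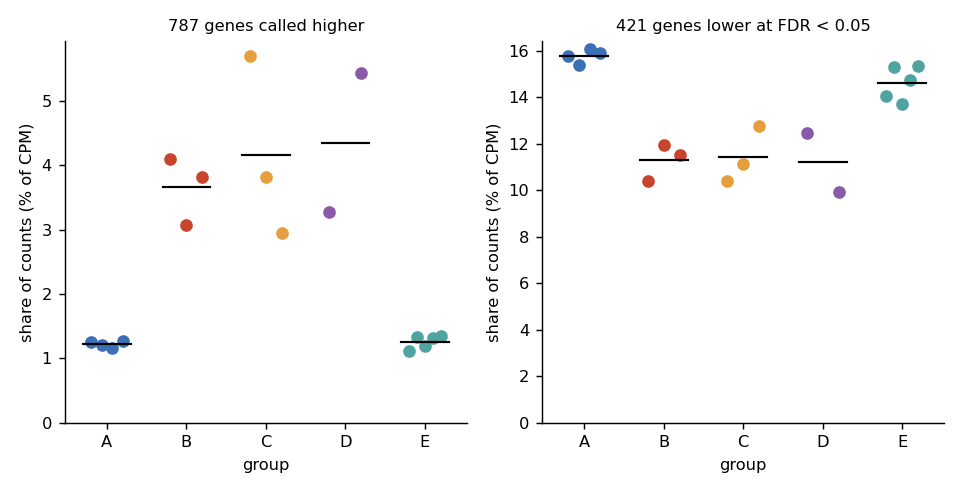
Share of each rat's CPM held by the 787 genes called higher (left) and the 421 genes lower by the FDR alone (right), with 1 point per rat and a line at each group's mean. Groups A and B chose the genes. The intact rats of group E lie near group A and the injured rats of groups C and D near group B.

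The same genes were compared in stimulated rats, injured against intact, ±SCI(st), which shares no rat with ±SCI(0). Both comparisons come from a single fit with a shared filter and a shared estimate of the spread, so their calls are not fully independent. Of the 787 genes called higher, 785 had a log2(FC) above 0 there and 719 (91.4%) were called higher, against 7.34% of all genes tested. Their median log2(FC) was 1.77 in ±SCI(0) and 1.88 in ±SCI(st). Of the 33 genes called lower, 29 kept the direction and 7 (21.2%) were called, against 0.977% of all genes, and their median log2(FC) went from -1.28 to -0.63. Of the 421 lower by the FDR alone, 414 kept the direction and 287 (68.2%) passed the FDR in ±SCI(st), against 11.3% of all genes.

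Among the named genes, Uba7 had a log2(FC) of 0.97 (SE 0.20) in ±SCI(st), Masp1 0.70 and Mx1 1.64, beside 1.12, 0.59 and 2.04 in ±SCI(0). Ltc4s had -0.24 in ±SCI(st), where group C lay at 1.57 to 2.00 CPM within the 1.31 to 3.12 CPM of group E. RGD1564883 had 2.38 there and -6.65 in ±SCI(0).

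The erythroid and neutrophil lists had median fitted values of opposite sign in the 2 comparisons. The erythroid list had a median log2(FC) of -1.22 in ±SCI(0) and 1.96 in ±SCI(st), where 11 of 13 were called, beside 7.34% of all genes called higher. The neutrophil list had -1.09 and 2.41, with 7 of 10 called in ±SCI(st), beside the same 7.34%. Its median in ±SCI(0) was 0.00 without rat 84 of group A, and its member Fcnb was above 0 in both comparisons (1.05 and 2.70). These genes were picked for their difference between groups C and B, which fixes part of this contrast.

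The difference between the comparisons, (B - A) - (C - E), was tested gene by gene in the same model. No gene was called by edgeR's quasi-likelihood test (0 genes, lowest FDR 0.80), with 635 at an unadjusted p under 0.05, and DESeq2 called 0 (lowest FDR 0.067), with 585. With 3 to 5 rats in each group, this does not show that injury acted alike in stimulated and unstimulated rats. Without rat 82 of group A, 3 genes were called, the small RNAs AABR07060522.2, AABR07060522.3 and AC097575.3.

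**Figure D5:**
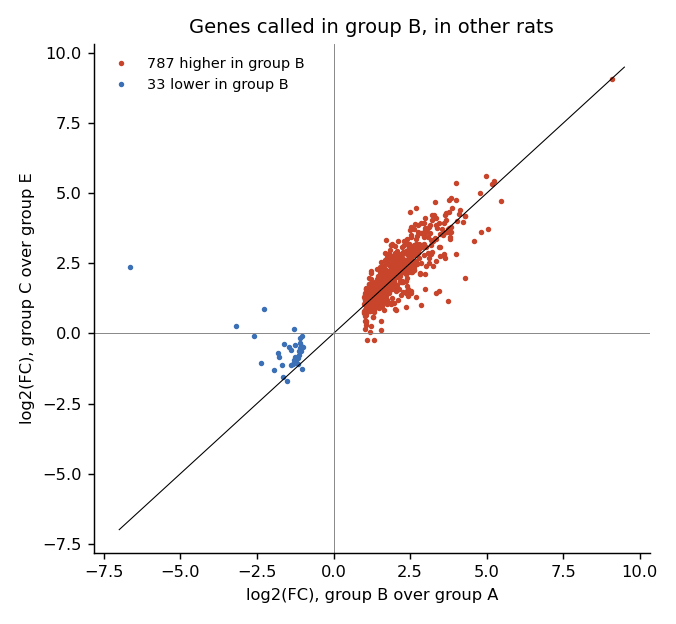
log2(FC) of group B over group A (x axis) against that of group C over group E (y axis) for the 820 genes called in ±SCI(0), with the line of equality. The 787 red points lie along the line, and all but 2 of the 33 blue ones have a larger log2(FC) on the y axis than on the x axis, with RGD1564883 at the upper left.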

How the data were processed

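RNA of 17 rat spinal cords was analysed, and results are given for groups A and B. The authors trimmed single-end reads with Trim Galore (0.4.1), aligned them with STAR (2.5.0a) and deposited whole-number counts per Ensembl gene, not normalized, which are used as such. The labels name another genome build (Rnor_6.0) than the methods (an earlier one), and the strand column of STAR is not given in the sources used here, so reads of a gene and an antisense gene may not be told apart. Samples were grouped by the letter in their titles, and each library is 1 rat.

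Counts were fitted in R 4.3.3 with edgeR 4.0.16 (glmQLFit, glmQLFTest), TMM scaling and a coefficient for each of the 5 groups, after filterByExpr kept 15460 of 32494 genes. The thresholds for a call were FDR 0.05 and a 2-fold change. The SE is the size of log2(FC) divided by the root of F. DESeq2 1.42.0, edgeR's exact test and other settings, each rat left out among them, were alternatives. So was a rerun of the study's pipeline from its methods, an exact test with scaling by total counts and no filter on low counts. The rerun did not give the study's own number of calls. The fit was tested on simulated data. Names came from the study's supplement for 99 identifiers. Of 66 gene lists written, those with at least 4 matched members were summarised. Genes were named by a rule: the first member of each list, up to 3 called members at 1 CPM or more without overlap, and, in a list with no call, its most abundant member, and the 10 largest rises and falls among called named genes at 1 CPM or more without overlap, of which there were 3. Members and lists were chosen with earlier results of these data known. Promoters are from RefSeq (GRCr8) and carry none of the files' coordinates. Pandas 2.3.3, numpy 2.4.6 and matplotlib 3.10.9 were used under Python 3.11.15.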

Additional observations from a re-analysis of the deposited data

Results flagged for a closer look

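In groups A (4 rats) and E (5 rats), a single rat stood apart from the others in 8 of 74 sets of values examined. All of these were in group A, and all but Mx1 were small RNAs of rat 82. Chance would mark about 1 in 20 independent sets, but these sets share rats and genes, so the shares cannot be compared. In group A, Mx1 was 12.7 CPM in rat 84 against 5.80 to 6.25 CPM in the other 3. Rat 82 of group A stood apart in small RNAs: it had 1199 CPM of AABR07060522.2 against 78.2 to 88.9 CPM, 1154 CPM of AABR07060522.3 against 131 to 175 CPM, 17.6 CPM of AABR07036645.1 against 7.397 to 8.58 CPM, and 172 CPM of AC097575.3 against 56.8 to 65.8 CPM. Its mean log2(CPM + 0.5) was 2.89 over the snoRNAs against 1.42 to 1.63, 2.51 over the snRNAs against 0.79 to 0.96, and 4.48 over the misc RNAs against 2.09 to 2.44.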

How the results depend on the processing

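With no limit on fold change, 1912 genes passed in ±SCI(0), 1491 higher and 421 lower, and 78.0% of them were higher. Genes called lower numbered 62 by the exact test on groups A and B alone. They numbered 50 in the rerun of the study's pipeline, which is not the count that the study itself reported. Leaving out each rat gave 557 to 889 genes called, 542 to 850 higher and 14 to 39 lower (14 without rat 95, 15 without rat 91), with 94.9% to 98.0% of calls higher. The difference between ±SCI(0) and ±SCI(st) had 0 to 3 calls, 3 without rat 82 of group A. S100a8 and S100a9 ranged from -0.60 to 1.01 and from -0.86 to 0.49 with each rat left out, and reversed (to 1.01 and 0.49) without rat 84 of group A. The cause was not tested. Of 568 values of single named genes under alternatives, 529 kept their direction and side of the threshold, 27 newly passed, 10 no longer passed and 2 reversed. Ltc4s also lost its call when the number series of the rats was added to the model (adjusted p = 0.066, edgeR). No paired analysis was possible because each rat has its own number and no number occurs in both groups. Of the 7 rats only rat 70 of group A is in the lower number series, so that series cannot be compared within both groups. At about 10 counts per CPM, genes near 1 CPM rest on few reads.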
